A study of Mus musculus with 12 samples.

Results

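Heart RNA was examined for 7 genes of the natriuretic peptide system and of the cardiac response to load. They were chosen by name from the 17397 genes of the table, and all 7 were found and passed the filter on low counts: Nppa (gene ID 230899), Nppb (18158), Corin (53419), Npr1 (18160), Npr3 (18162), Acta1 (11459) and Ankrd1 (107765). The hearts came from male C57BL/6J mice aged 8 weeks. Tumour trained mice ran on a treadmill and were given B16F10 melanoma cells, a mouse tumour line of the same strain, tumour mice were given the cells and did not run, trained mice ran only, and untrained control mice were labelled saline. Cells were given as 100000 per mouse into the tail vein from week 2 of the study. Running took place on 5 days a week for 4 weeks, with 1 week of adaptation at 6 to 15 m/min and then 3 weeks of 5 min at 6 m/min followed by 35 min at 12 m/min. Each of the 4 groups had 3 libraries. Whether the 3 libraries of a group stem from different mice is not stated, so a p-value here reflects variation among libraries that may be technical.

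Natriuretic peptides are hormones that heart muscle cells release when the wall of the heart is stretched. Nppa encodes the precursor of atrial natriuretic peptide and Nppb that of brain natriuretic peptide, and Corin is a membrane protease of heart muscle cells that cuts the Nppa precursor to its active form. The receptor Npr1 answers both peptides by making cyclic GMP, which relaxes vessels and promotes salt loss, whereas Npr3 binds the peptides and clears them. Nppa, Nppb, Acta1 (skeletal muscle alpha-actin, an actin of the fetal heart) and Ankrd1 (a nuclear and sarcomeric protein that binds titin) are widely used as markers of ventricular load, in which they are known to rise.

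The regions upstream of these genes differ in exact matches to elements that load-related factors are known to read. Those of Nppa and Acta1 are shown because the 2 genes carry different sets of these matches. Sites that differ from an element by any base were neither marked nor counted, so such sites may be present in any window. The 250 bases before each start were taken from RefSeq (GRCm38.p6), in which all 7 genes had an entry. Capitals mark, on either strand, the MCAT element (CATTCC, read by TEAD factors), the Nkx2-5 core (AAGTG), the GATA core (GATAA), the AP-1 site (TGANTCA) and the CArG box (read by SRF), and on the forward strand the TATA box (TATAAA).
Nppa, chr4:148000472-148000721, plus strand: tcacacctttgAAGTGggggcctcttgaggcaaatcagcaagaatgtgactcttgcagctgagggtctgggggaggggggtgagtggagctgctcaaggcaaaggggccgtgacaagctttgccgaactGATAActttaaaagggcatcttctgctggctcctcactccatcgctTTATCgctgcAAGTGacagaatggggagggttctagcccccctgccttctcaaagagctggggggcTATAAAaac
Acta1, chr8:123894776-123895025, minus strand: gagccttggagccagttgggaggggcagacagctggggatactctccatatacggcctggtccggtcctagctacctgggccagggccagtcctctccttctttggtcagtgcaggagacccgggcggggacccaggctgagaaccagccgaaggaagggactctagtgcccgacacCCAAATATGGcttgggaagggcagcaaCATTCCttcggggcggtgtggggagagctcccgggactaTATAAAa
The window of Nppa held 2 Nkx2-5 cores, 2 GATA cores and a TATA box, and that of Acta1 held 1 CArG box, 1 MCAT element and a TATA box. Nppb, the neighbour of Nppa on chromosome 4, had 1 MCAT element close to 2 GATA cores, shown as a short stretch, as well as a TATA box. Ankrd1 had 2 MCAT elements and 1 GATA core.
Nppb, chr4:147985795-147985821, plus strand: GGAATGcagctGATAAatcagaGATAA
Ankrd1, chr19:36120044-36120059, minus strand: ccaaaGGAATGaccct
Ankrd1, chr19:36119957-36119972, minus strand: agtctGGAATGaaaat
None of these letters was found in the windows of Npr1, Npr3 or Corin. Among 32851 RefSeq windows of the same length, 12.6% held an MCAT element, 40.7% an Nkx2-5 core, 22.6% a GATA core, 6.75% an AP-1 site, 7.59% a forward TATA box and 1.47% a CArG box. No listed motif overlapped another in the windows shown.

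The 12 libraries held 8843909 to 13344847 counts in total, and a floor of 3 counts equals 0.225 to 0.339 CPM (counts scaled to library size). Levels are CPM after trimmed mean of M values scaling for library composition. The tissue label says heart while the extraction protocol names livers. The liver gene Alb reached at most 3.93 CPM, and the cardiac myosin gene Myh6 lay between 6525 and 37543 CPM. Of 7 atrial genes, Myl7, Sln, Bmp10 and Mybphl were at or below 0.745 CPM in all 12 libraries, Myl4 was at or below 2.42 CPM, and Kcnj3 and Pam were present. The 7 skeletal muscle genes in the table together reached at most 3.16 CPM. Tumour 1 and tumour 2 stood apart: the 7 melanocyte genes summed to 12002 and 6216 CPM there and to 22.1 CPM in tumour 3, against 7.39 to 11.05 CPM in tumour trained, 8.59 to 9.37 CPM in trained and 9.25 to 14.2 CPM in control libraries. The 18 cardiomyocyte genes summed to 29874 CPM in tumour 1 and 80540 CPM in tumour 2, and to between 140789 and 149611 CPM in the other 10 libraries. Tyrp1, a pigment enzyme, was at 0 in all 9 libraries from outside the tumour group. The main results of the tumour group are therefore also given without tumour 1 and tumour 2. In bulk tissue, fewer cells of a type and less RNA per cell cannot be told apart.

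Per length of exon, the peptide and load genes were far more abundant than the receptors. In control libraries Nppb averaged 547 ± 180.4 CPM per kb (SD, n = 3, as for all such values), Ankrd1 394 ± 72.9, Acta1 288 ± 45.1 and Nppa 263 ± 44.4 CPM per kb, and neighbours in this order overlapped within their SDs. Corin followed at 56.9 ± 9.21 CPM per kb, Npr1 at 7.98 ± 0.796 CPM per kb and the clearance receptor Npr3 at 1.41 ± 0.198 CPM per kb, each below the one before it by more than both SDs.

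**Figure D1:**
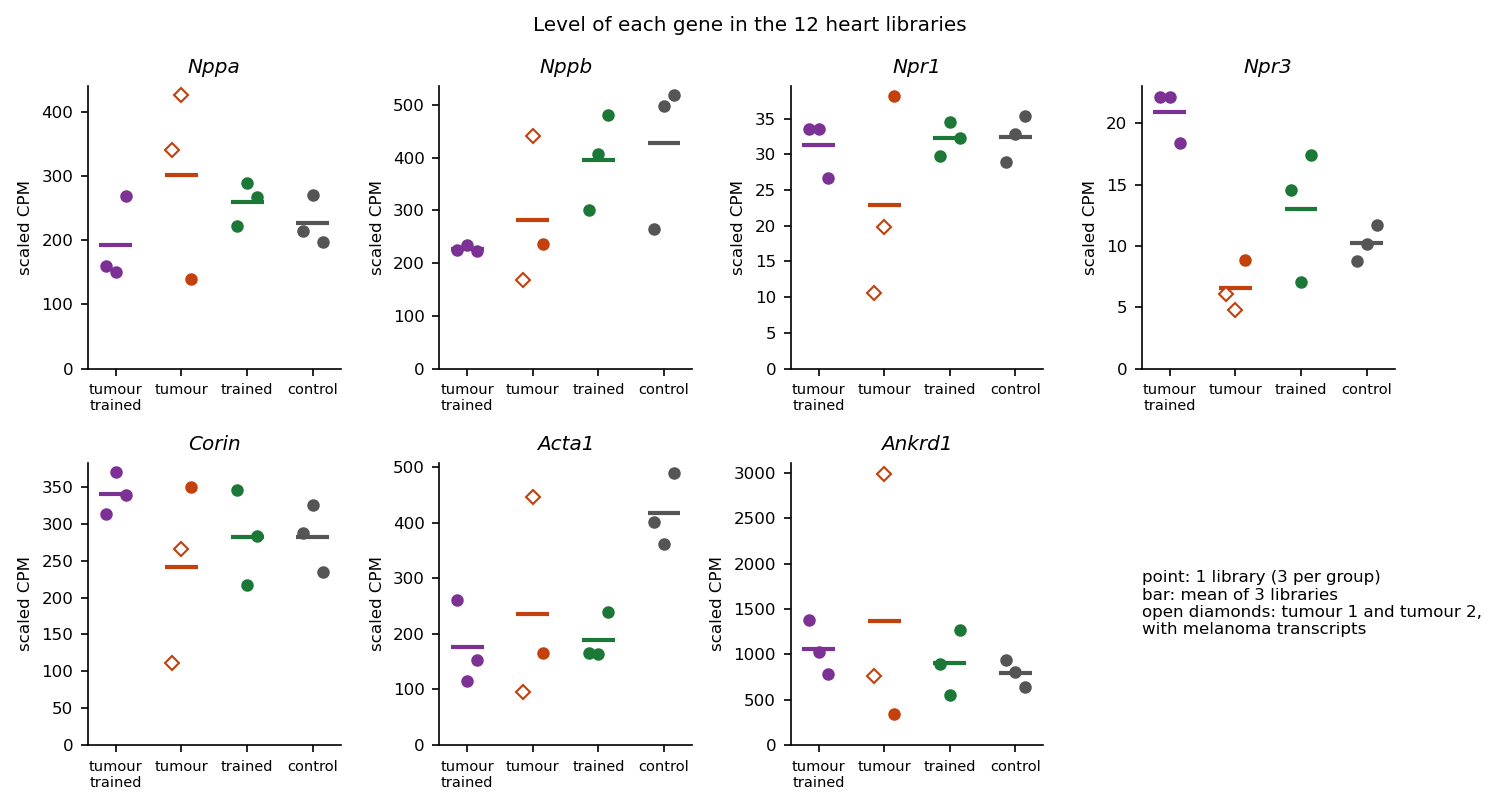
Scaled CPM of each of the 7 genes (vertical axes from 0, a separate scale per gene) in the 12 libraries, with tumour trained, tumour, trained and control libraries from left to right and a bar at the mean of 3 libraries. Npr3 lay at 18.4 to 22.2 CPM in the tumour trained libraries, above all the others, Nppb lay at 222 to 234 CPM there, and Acta1 was lower in all trained and tumour trained libraries than in any control library.

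In the fit of 12 libraries only 1 gene of the set was called, the clearance receptor Npr3, and only in tumour trained against tumour libraries. Npr3 had 22.2, 22.1 and 18.4 CPM in tumour trained libraries, 6.10, 4.80 and 8.86 CPM in tumour libraries, 14.6, 7.03 and 17.4 CPM in trained libraries and 8.81, 10.1 and 11.7 CPM in control libraries. All 3 tumour trained libraries were above each of the other 9, as was so for 1.43% of the 12778 genes tested. Tumour trained libraries were 3.18-fold higher than tumour libraries (log2 fold change 1.67 ± 0.32 SE, adjusted p = 0.0357, edgeR quasi-likelihood test with Benjamini-Hochberg adjustment over all genes tested). Among all genes, 9.05% were called in this comparison, at an adjusted p below 0.05, and 1.79% of all genes were called higher in tumour trained libraries. One of the 7 genes was called, a share near that of all genes. Npr3 was also the one gene of the 7 whose libraries did not overlap between these groups, as was so for 28% of all genes, and one of 31.9% of all genes with an unadjusted p below 0.05.

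The Npr3 difference kept its direction in all 25 alternatives in which it was computed and its call in 9 of them. Tumour 3, the tumour library with few melanocyte transcripts, had 8.86 CPM and lay within the control range. Without tumour 1 and tumour 2 the log2 fold change was 1.22 ± 0.40, with an adjusted p of 0.204 in edgeR. With counts scaled to the 18 cardiomyocyte genes in place of the whole library it was 0.46 ± 0.52 (adjusted p = 0.433). Tumour 1 then stood at 2.94 times the control mean for Npr3, while tumour 2 and tumour 3 stood at 0.860 and 0.865 times that mean.

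Npr3 was also higher in tumour trained libraries than in the tumour-free groups, though not past the threshold over all genes. Against control libraries the log2 fold change was 1.03 ± 0.32 (2.05-fold, unadjusted p = 0.00726 and adjusted p = 0.766 in the edgeR fit), and against trained libraries it was 0.69 ± 0.32 (adjusted p = 1 in edgeR). Trained 2 was the lowest of the trained libraries for Npr3, and it also differed from its replicates over all genes. The chi-square per gene was 29.0 and 31.2 for its pairs, against 4.20 for trained 1 and trained 3. Genes with 6000 to 9000 exon bases, the class of Npr3 with 7248, had a median log2 difference of -0.223 from the 12-library mean in trained 2. In that class the median log2 fold change was -0.046 for tumour trained against tumour and 0.085 for tumour trained against control libraries. With each library's trend with exon length removed, Npr3 in tumour trained against tumour libraries was at 1.62 ± 0.31 and stayed called (adjusted p = 0.0326 in edgeR).

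Nppb, the brain natriuretic peptide gene, was evenly low in tumour trained libraries. It had 225, 234 and 222 CPM there, 168, 442 and 236 CPM in tumour libraries, 300.2, 407 and 481 CPM in trained libraries and 265, 498 and 518 CPM in control libraries. The tumour trained libraries lay below every trained and every control library, as they did in 4.6% of all genes, and their coefficient of variation was 2.65%, against 33.0% in control libraries. The log2 fold change was -0.91 ± 0.35 against control libraries (unadjusted p = 0.0244 and adjusted p = 0.766 in edgeR) and -0.80 ± 0.35 against trained libraries (unadjusted p = 0.0422 and adjusted p = 1 in edgeR). Neither difference passed the threshold. Control 2 and control 3 were also high in the sum of 12 immediate early genes, which cells induce within minutes of a stimulus or of tissue handling. These summed to 2036 and 2031 CPM in control 2 and control 3 and 365 CPM in control 1, against 403 to 880 CPM in tumour trained libraries. Not each of the 12 was high there: Ier3 had 20.5 and 23.7 CPM in control 2 and control 3 and 39.1 CPM in control 1. Without control 2 and control 3 the Nppb difference between tumour trained and control libraries was -0.22 ± 0.48. That fit keeps only control 1, the lowest control library for Nppb, so a smaller difference was set by the choice of libraries. In trained 1, 2 and 3, with 300.2, 407 and 481 CPM of Nppb, the immediate early genes summed to 371, 535 and 566 CPM. Tumour trained 1, 2 and 3, with 225, 234 and 222 CPM of Nppb, had sums of 649, 880 and 403 CPM. Tumour 1, 2 and 3, with 168, 442 and 236 CPM of Nppb, had sums of 361, 647 and 865 CPM. The part of the immediate early genes in the Nppb levels was not tested.

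Acta1, the fetal actin, had lower levels in every library of both trained groups than in control libraries, though neither difference passed the threshold over all genes. It had 261, 116 and 152 CPM in tumour trained libraries, 95.5, 447 and 166 CPM in tumour libraries, 166, 163 and 239 CPM in trained libraries and 400.4, 361 and 489 CPM in control libraries. Every trained and tumour trained library was below every control library, which was so for 2.62% of genes. Trained libraries averaged 189 ± 43.3 CPM and control libraries 417 ± 65.2 CPM (SD, n = 3 each), a log2 fold change of -1.14 ± 0.48. The unadjusted p was 0.0363 and the adjusted p was 1 in the edgeR fit of 12 libraries. Tumour trained against control libraries gave -1.24 ± 0.48 (unadjusted p = 0.0251 and adjusted p = 0.766 in edgeR). The 12 immediate early genes summed to 365, 2036 and 2031 CPM in control 1, 2 and 3, and their part in the Acta1 levels was not tested. Of the 50-base stretches in Acta1 transcripts, 2.02% also occur in other genes, among them Actb, and none did so in the other 6 genes of the set.

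**Figure D2:**
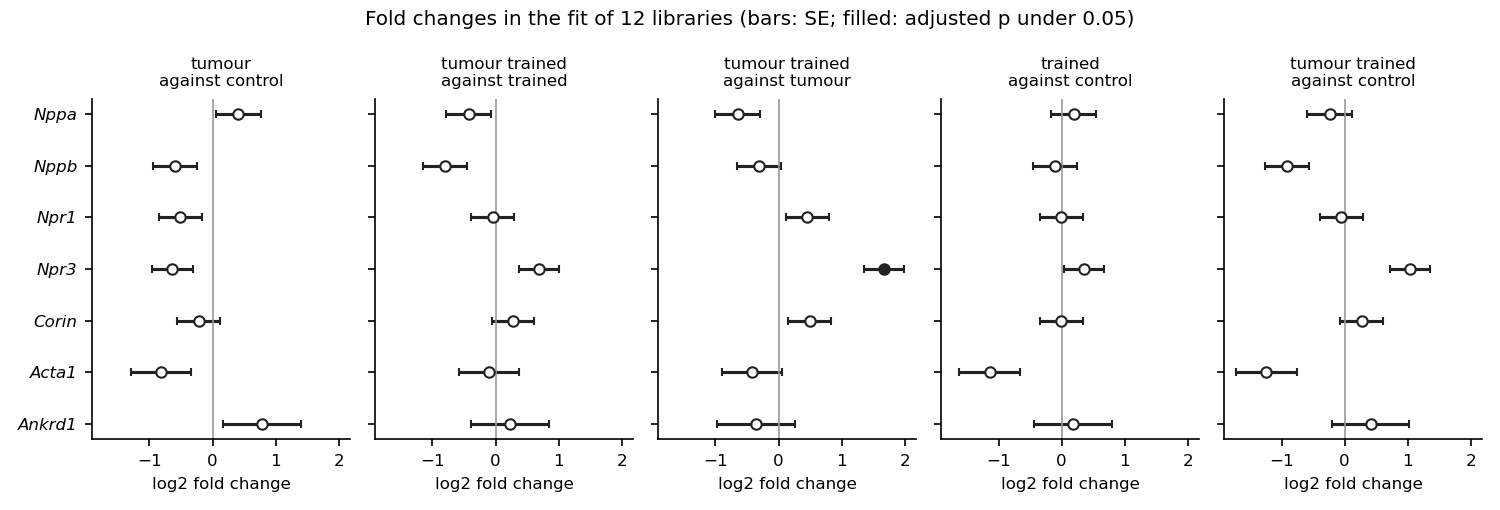
Log2 fold changes (horizontal axes, bars ± SE) of the 7 genes in 5 comparisons of the edgeR fit of 12 libraries, with the first-named group over the second. The single filled point, an adjusted p below 0.05, is Npr3 in tumour trained against tumour libraries at 1.67.

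The other 4 genes had overlapping levels in tumour trained, trained and control libraries. Corin, the protease, averaged 341 ± 28.3 CPM in tumour trained, 282 ± 64.5 CPM in trained and 282 ± 45.7 CPM in control libraries. Nppa had 160, 150.4 and 269.6 CPM in tumour trained libraries, 223, 289 and 268 CPM in trained libraries and 214, 271 and 198 CPM in control libraries. Npr1, the receptor that makes cyclic GMP, was the steadiest gene of the set outside the tumour group, at 26.7 to 33.6 CPM in tumour trained, 29.8 to 34.6 CPM in trained and 29.0 to 35.4 CPM in control libraries. Ankrd1 had 1376, 1026 and 779 CPM in tumour trained libraries, 891, 554 and 1264 CPM in trained libraries and 935, 809 and 642 CPM in control libraries. None of the 4 was called in any comparison among these 3 groups. An edgeR p above the threshold does not show that levels were alike: the SE of a log2 fold change between tumour trained and control libraries was 0.36 for Nppa, 0.34 for Npr1 and Corin, and 0.61 for Ankrd1.

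Counts over the set were set against those over all genes. In tumour trained against control libraries 0 of the 7 genes and 0% of all genes were called by edgeR, 3 genes of the set (Npr3, Nppb and Acta1) had an unadjusted p below 0.05, as did 6.46% of all genes, while 10 genes, none of the set, were called by DESeq2. The libraries of the 2 groups did not overlap for those 3 genes, and for 39.2% of all genes. In trained against control libraries edgeR called 0 of the 7 genes and 0% of all genes, with 1 gene of the set (Acta1) and 2.18% of all genes at an unadjusted p below 0.05. The libraries of these groups did not overlap for Acta1 alone among the 7, and for 9.48% of all genes. DESeq2 called 2 genes, none of the set. In tumour trained against trained libraries edgeR again called 0 of the 7 genes and 0% of all genes, with 1 gene of the set (Nppb) and 1.17% of all genes at an unadjusted p below 0.05, and 3 genes, none of the set, were called by DESeq2. Here the libraries did not overlap for Nppb and Npr3, and for 15.9% of all genes.

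**Figure D3:**
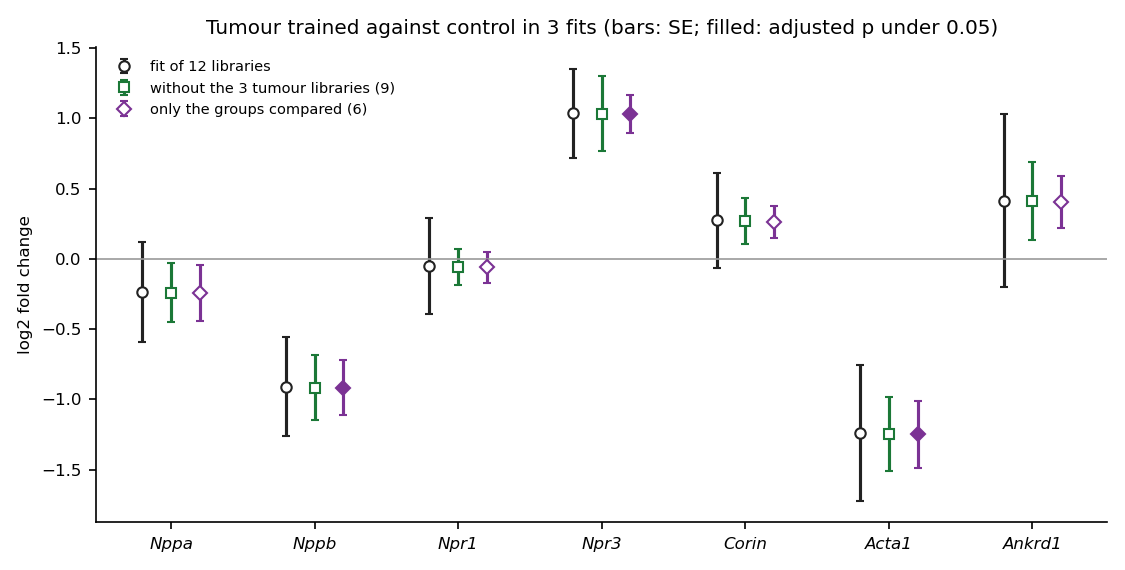
Log2 fold change of tumour trained over control libraries (vertical axis, bars ± SE) for the 7 genes, from the fit of 12 libraries, a fit without the 3 tumour libraries, and a fit of only these 2 groups, with filled points at an adjusted p below 0.05. The estimates nearly coincide while the SEs narrow, and Npr3, Nppb and Acta1 are filled only in the fit of 6 libraries.

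Whether Npr3, Nppb and Acta1 were called in tumour trained against control libraries depended on which libraries entered the fit. In an edgeR fit of only these 6 libraries all 3 were called, with log2 fold changes of 1.03 ± 0.13 (adjusted p = 0.00239), -0.92 ± 0.20 (0.0110) and -1.25 ± 0.24 (0.00723), and so were 20.4% of all genes. In a fit of the 9 libraries without the tumour group, a choice made after the data were seen, the log2 fold changes were 1.03 ± 0.27, -0.92 ± 0.23 and -1.24 ± 0.26. The adjusted p-values were then 0.134, 0.133 and 0.122 in edgeR, and 0.04% of all genes were called. The differences of these 3 genes kept their signs in all 26 alternatives.

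In tumour against control libraries no gene of the set was called, and in each of the 7 the tumour libraries did not all lie on the same side of the control range or within it. Nppa had 341 and 426 CPM in tumour 1 and tumour 2, above all control libraries, as 48.2% and 45.4% of all genes were in those libraries, and 139 CPM in tumour 3, below all of them. Ankrd1 had 764, 2981 and 343 CPM in tumour 1, 2 and 3, and the control libraries lay between 642 and 935 CPM. Tumour 2 was thus 3.75 times the control mean for Ankrd1 and tumour 3 was 0.431 times it. Npr1 had 10.6, 19.8 and 38.2 CPM, with tumour 1 and tumour 2 below the control range, as in 42% and 33.6% of all genes, and tumour 3 above it. Corin had 111, 266 and 350 CPM, against 287, 325 and 234 CPM in control libraries. Tumour 1 was below, tumour 2 within and tumour 3 above the control range for Corin.

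The log2 fold changes of tumour over control libraries were 0.41 ± 0.36 for Nppa, -0.60 ± 0.35 for Nppb, -0.51 ± 0.34 for Npr1, -0.64 ± 0.32 for Npr3, -0.22 ± 0.34 for Corin, -0.82 ± 0.48 for Acta1 and 0.78 ± 0.62 for Ankrd1. Their adjusted p-values in edgeR ran from 0.177 for Npr3 to 0.64 for Corin. DESeq2 called none of them either, and the unadjusted p was above 0.05 for each, while 34.4% of all genes were below it. Of all genes 6.79% were called and 26.1% had libraries that did not overlap between these groups. The median of all genes was itself at 0.108 on the log2 scale.

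Without tumour 1 and tumour 2, with the lone tumour 3 assumed to vary like the other groups, 4 of these signs were the opposite. Nppa was then at -0.70 ± 0.31, Ankrd1 at -1.20 ± 0.42, Npr1 at 0.25 ± 0.18 and Corin at 0.32 ± 0.22, and the 3 others kept their sign. None was called (adjusted p from 0.158 for Acta1 to 0.927 for Npr3 in edgeR). Tumour 3 was below every control library in Nppa, Nppb, Acta1 and Ankrd1, as it was in 29% of all genes, and above every control library in Npr1 and Corin, as it was in 31.9%. Without tumour 3 in turn, edgeR called Nppa (0.71 ± 0.25, adjusted p = 0.0333), Npr1 (-1.14 ± 0.24, adjusted p = 0.00239) and Npr3 (-0.94 ± 0.32, adjusted p = 0.0285), and 53% of all genes. Tumour trained against tumour libraries without tumour 3 gave calls for Nppa (-0.96 ± 0.25), Npr1 (1.07 ± 0.24), Npr3 (1.96 ± 0.33) and Corin (0.88 ± 0.32), with adjusted p-values of 0.00838, 0.00353, 7.04e-04 and 0.0382 in edgeR, and for 49.8% of all genes.

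**Figure D4:**
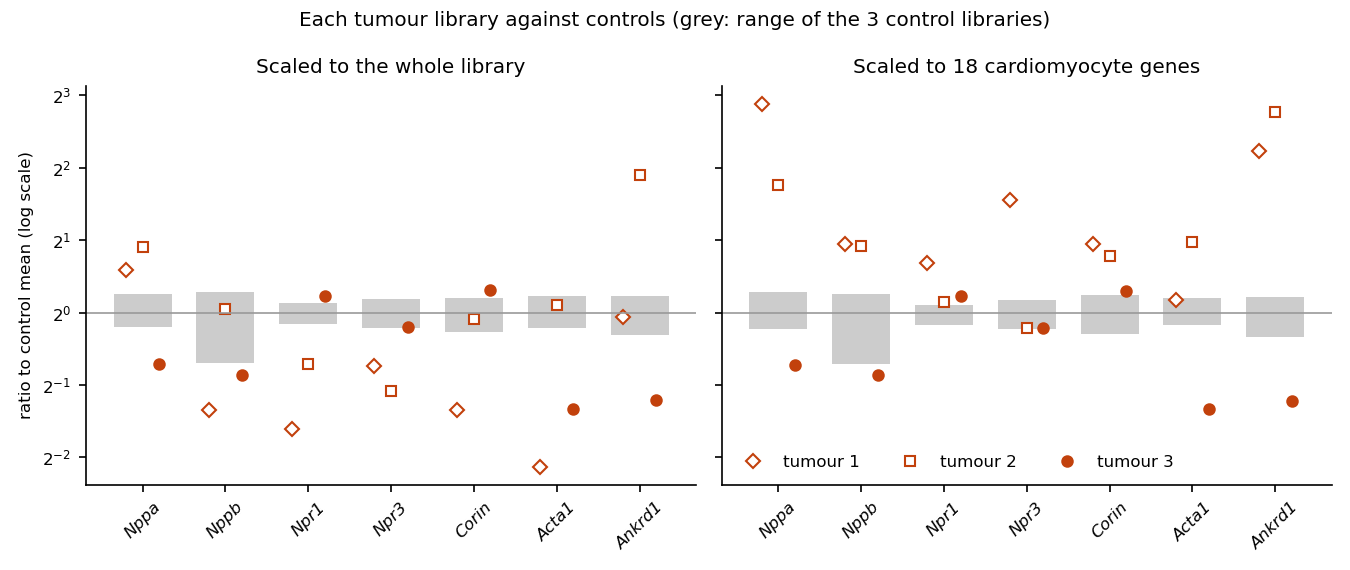
Ratio of each tumour library to the control mean (vertical axes, log scale) for the 7 genes, with counts scaled to the whole library on the left and to 18 cardiomyocyte genes on the right, and the range of the 3 control libraries in grey. Scaled to the cardiomyocyte genes, tumour 1 reached 7.36 times the control mean in Nppa while tumour 3 stayed at 0.606 times it.

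Scaled to the 18 cardiomyocyte genes, most genes of the table were higher in tumour than in control libraries, and edgeR called 8519 of 12778 higher. Most of the set was likewise above control libraries in tumour 1 and tumour 2. The share of all genes above every control library was not computed under this scaling. Nppa then stood at 7.36, 3.41 and 0.606 times the control mean in tumour 1, 2 and 3, and Ankrd1 at 4.72, 6.84 and 0.429 times. Nppb stood at 1.93, 1.89 and 0.550 times, and Corin at 1.93, 1.71 and 1.23 times the control mean. Tumour 3 was close to its value under the scaling to the whole library in all 7 genes. Under the cardiomyocyte scaling edgeR called Nppa (log2 fold change 1.92 ± 0.63, adjusted p = 0.0256), Ankrd1 (2.00 ± 0.70, adjusted p = 0.0297) and Corin (0.70 ± 0.26, adjusted p = 0.0340), and 67.2% of all genes. The median of all genes moved to 1.463 under this scaling, above the value for Corin. In tumour trained against tumour libraries the same scaling gave calls for Nppa (-2.13 ± 0.64), Nppb (-1.42 ± 0.43) and Acta1 (-1.41 ± 0.50), with adjusted p-values of 0.0273, 0.0276 and 0.0350 in edgeR, and for 56.2% of all genes. The median of all genes was -1.356 there, near the values for Nppb and Acta1. Melanoma transcripts and heart transcripts of these genes cannot be told apart in tumour 1 and tumour 2.

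The interaction, the tumour effect in trained libraries minus that in untrained libraries, was called for 0 of the 7 genes and for 0.0235% of all genes in edgeR. It was largest in size for Npr3, at 1.32 ± 0.45 (unadjusted p = 0.0130, adjusted p = 0.290), the one gene of the set below 0.05 before adjustment, where 14.4% of all genes were, and none of the set was called by DESeq2. For Nppa it was -0.84 ± 0.51 (adjusted p = 0.424 in edgeR). Without tumour 3, Nppa (-1.15 ± 0.34), Npr1 (1.09 ± 0.31) and Npr3 (1.63 ± 0.42) were called, with adjusted p-values of 0.0278, 0.0241 and 0.0166 in edgeR, as were 30.1% of all genes. Without tumour 1 and tumour 2 none was (Npr3 0.88 ± 0.48, adjusted p = 0.662 in edgeR).

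Further genes of natriuretic peptide and cyclic GMP signalling were not called. Of a list of 15 genes (the receptor Npr2, peptide genes, convertases, peptidases, cyclic GMP kinases, phosphodiesterases and soluble guanylate cyclase subunits), 12 were tested. The peptide genes Nppc and Ostn and the kinase gene Prkg2 had too few counts. None of the 12 was called in any of the 6 contrasts by edgeR, and 4 had an unadjusted p below 0.05 in tumour against control libraries, as did 34.4% of all genes. Their median log2 fold change was -0.40 there, against 0.108 for all genes, and 0.42 in tumour trained against tumour libraries, against -0.039 for all genes. The 18 cardiomyocyte genes had medians of -0.72 and 0.70 in these comparisons and 6 endothelial genes -0.87 and 0.61, and the part of tissue composition in the list medians was not tested. With tumour 3 as the lone tumour library, the medians of the pathway list were -0.042 and 0.11, those of the cardiomyocyte genes 0.029 and -0.059, those of the endothelial genes -0.30 and -0.010, and those of all genes 0.017 and -0.001. Pcsk6, a convertase known to activate Corin, had 12.6, 50.5 and 76.9 CPM in tumour 1, 2 and 3, against 110.4, 107.6 and 105 CPM in control libraries (log2 fold change -1.21 ± 0.45, adjusted p = 0.0941 in edgeR). All 3 tumour libraries were below all control libraries, where 26.1% of all genes had libraries that did not overlap, and the 2 lowest were those with melanocyte transcripts. Pde2a, a phosphodiesterase that cyclic GMP activates, was at -0.72 ± 0.30 (adjusted p = 0.120 in edgeR). In the fit without tumour 1 and tumour 2, Pcsk6 was at -0.47 ± 0.20 (adjusted p = 0.331 in edgeR) and Pde2a at -0.12 ± 0.14 (0.833).

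Of 18 further genes known from cardiac load and stretch, 17 were tested, and Ankrd2 had too few counts. Myh7, the slow myosin of the fetal mouse ventricle, and Timp1, an inhibitor of matrix proteases, were called higher in tumour than in control libraries, 2 of the 17 genes, where 6.79% of all genes were called. Myh7 had 379, 1278 and 174 CPM in tumour 1, 2 and 3, and 144, 100.1 and 176 CPM in control libraries (log2 fold change 2.13 ± 0.56, adjusted p = 0.0479 in edgeR). Timp1 had 40.1, 71.2 and 3.69 CPM in the tumour libraries, and 1.82, 2.14 and 1.68 CPM in control libraries (4.34 ± 0.82, adjusted p = 0.0390 in edgeR). Both were high in tumour 1 and tumour 2, and for Myh7 tumour 3 lay within the control range. Timp1 was called lower in tumour trained than in tumour libraries (-3.76 ± 0.79, adjusted p = 0.0357 in edgeR), with 4.12, 1.40 and 2.95 CPM in the tumour trained libraries. Without tumour 1 and tumour 2 neither was called: against control libraries Myh7 was at 0.32 ± 0.29 (adjusted p = 0.751 in edgeR) and Timp1 at 0.98 ± 0.44 (0.382), and Timp1 in tumour trained against tumour libraries was at -0.40 ± 0.43 (0.682). In that fit, which keeps only tumour 3, Ankrd23 was at -0.90 ± 0.18 in tumour against control libraries. Ankrd23 is a relative of Ankrd1 named here after its values were seen. With all 12 libraries it was at -1.03 ± 0.36 (adjusted p = 0.0815 in edgeR). Every tumour trained library was likewise below every control library for Ankrd23, the highest of them at 513 CPM and the lowest control at 789 CPM. That difference was not called either (-0.79 ± 0.36, unadjusted p = 0.0472 and adjusted p = 0.766 in edgeR). Trained 1 and trained 3 were also below the control range, and trained 2 was within it. No gene of this list was called in the other 4 contrasts of the fit of 12 libraries. The list's median was -0.45 in tumour against control libraries, beside -0.72 for the cardiomyocyte, -0.87 for the endothelial and 0.108 for all genes, and -0.17 with tumour 3 as the lone tumour library. The early stretch gene Ccn1, named here after its values were seen, had 102, 121 and 61.1 CPM in tumour trained, 87.8, 122 and 99.5 CPM in trained and 79.3, 593 and 661 CPM in control libraries, so that it was high in the same 2 control libraries as Nppb.

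All 17 transcription factors known to act on these promoters or in the load response were tested. Srf, the factor known to read CArG boxes, was called lower in tumour than in control libraries (82.3, 114 and 131 CPM in tumour 1, 2 and 3, against 156, 191 and 204 CPM in control libraries, log2 fold change -0.75 ± 0.19, adjusted p = 0.0465 in edgeR). Each tumour library was below each control library for Srf. Of all genes, 6.79% were called in this comparison and 26.1% had libraries that did not overlap. Low Srf was not particular to the tumour group, as every tumour trained library was also below every control library. That difference was not called (-0.47 ± 0.19, unadjusted p = 0.0322 and adjusted p = 0.766 in edgeR). Trained 1 and trained 3 were below the control range as well, and trained 2 was within it. Mef2a, a muscle transcription factor, was called higher in tumour trained than in tumour libraries (242, 264 and 251 CPM in tumour trained, against 116, 134 and 137 CPM in tumour libraries, 0.97 ± 0.22, adjusted p = 0.0357 in edgeR), where 9.05% of all genes were called. Trained libraries had 238, 133 and 236 CPM of Mef2a, and control libraries 146, 198 and 201 CPM. With tumour 3 as the lone tumour library, Srf was at -0.48 ± 0.19 (adjusted p = 0.317 in edgeR) and Mef2a at 0.87 ± 0.29 (0.223). No other factor was called, in these contrasts or the other 4. The median of the 17 was -0.25 in tumour against control and 0.28 in tumour trained against tumour libraries, against 0.108 and -0.039 for all genes, -0.72 and 0.70 for the cardiomyocyte genes and -0.87 and 0.61 for the endothelial genes. In the fit without tumour 1 and tumour 2 the medians of the 17 were -0.13 and -0.072. The part of tissue composition in them was not tested.

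**Figure D5:**
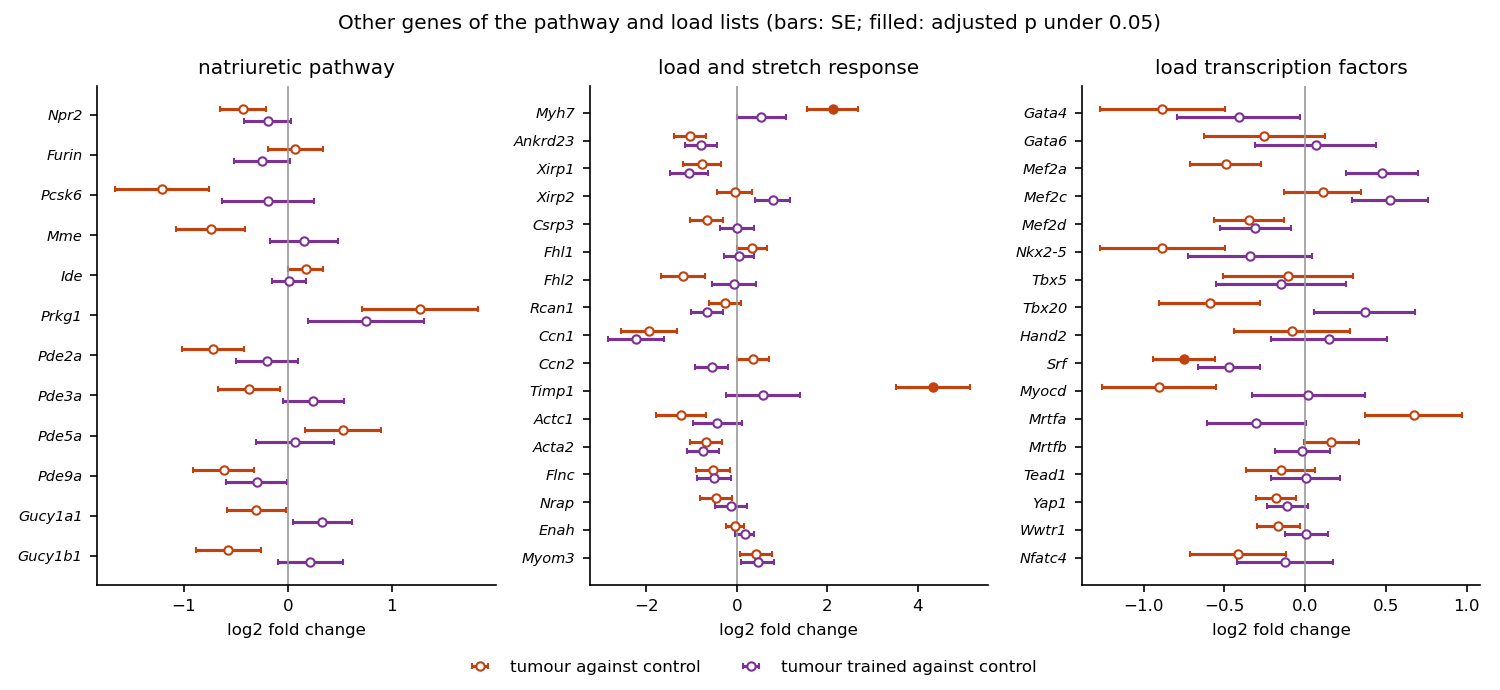
Log2 fold changes (horizontal axes, a separate scale per panel, bars ± SE) of the tested genes of the 3 lists in tumour against control and in tumour trained against control libraries, with filled points at an adjusted p below 0.05. Myh7 (2.13), Timp1 (4.34) and Srf (-0.75) are filled, all in tumour against control libraries.

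The genes whose levels over the libraries were most like each of the 7 differed from gene to gene, by Pearson correlation of log2 CPM among 11715 genes. These values describe libraries that share their tissue composition, and they carry no test. Over the 12 libraries the nearest to Nppa were B3gnt9 (r = 0.95), Col3a1 (0.90) and Pcolce (0.89), and those nearest to Nppb were Cplx2 (0.88), Lrrc8c (0.85) and Tgfb1 (0.82). Acaa2, Use1 and Eci1 were nearest to Npr1 (0.99 each) and Fbxw7 and Carnmt1 were near Npr3 (0.95 each). Ctnna3, Ryr2 and Scarb2 were nearest to Corin (0.98 each), Arhgap31 (0.89), Ecm1 (0.88) and Rtn4rl2 (0.86) to Acta1, and Cemip2 (0.90), Il1rl2 (0.87) and Oasl2 (0.83) to Ankrd1. Without tumour 1 and tumour 2, over 10 libraries, B3gnt9 stayed the nearest gene to Nppa (0.91), and the nearest to the others were Ttyh2 for Nppb (0.94), Zbtb22 for Npr1 (0.95), Pum2 for Npr3 (0.98), Mccc1 for Corin (0.95), Sh3bgrl2 for Acta1 (0.92) and Ecm2 for Ankrd1 (0.94). No gene of the set was among the 3 nearest to another. Among the 7 themselves, over those 10 libraries, the highest positive correlation was that of Npr3 and Ankrd1 (r = 0.70, Spearman rho 0.66). Nppa and Nppb (0.57 and 0.36) and Nppb and Acta1 (0.54 and 0.59) followed, and the most negative was that of Nppb and Corin (-0.63 and -0.56). Over all 12 libraries Npr3 and Ankrd1 were at -0.003 (rho 0.28), and the highest correlation was that of Npr1 and Corin (0.77 and 0.23).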

How the data were processed

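Heart RNA of 12 libraries in 4 groups was read from 1 table of estimated counts per gene that the authors deposited without normalization. RNA extraction used Trizol and library preparation a VAHTS V8 kit from Vazyme, per the labels' protocols. HISAT2 2.2.1, featureCounts and 2 mouse builds are named per the submitters' processing notes. Which build, annotation, strand setting and filter gave the table is not given in the sources used here. Genes were matched by gene ID, and overlapping or antisense genes cannot be told apart. Between 7.09% and 8.92% of a library's values were not whole numbers. All 84 values of the 7 genes were whole. The handling of reads that fit several genes is not stated.

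Estimated counts were rounded to whole numbers. Each pair of replicates differed by more than sampling noise (chi-square 3.67 to 369.5 per gene), and none was merged. All 12 libraries entered 1 edgeR 4.0.16 quasi-likelihood fit (R 4.3.3, limma 3.58.1, TMM, 1 mean per group, 8 residual degrees of freedom). The fit was also run on counts simulated with the same spread in all groups. Pairs of tumour libraries differed more (chi-square 102.6 to 369.5 per gene) than other pairs (at most 31.2), so that run does not speak for comparisons with the tumour group. The filter by expression left 12778 genes and removed 4619. A gene was called when its p, adjusted after Benjamini and Hochberg across every tested gene, was below 0.05. The SE is the log2 fold change divided by the square root of F. The floor of 3 counts covers counting error only. Exon lengths came from GENCODE vM21 and promoters from RefSeq.

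The 7 genes are reported whatever their result. Of 3 further gene lists, the called genes are named, or else the 2 with the smallest p in tumour against control. One gene among those most like the 7 is not reported here. The genes, lists and alternatives were chosen with earlier results of these data known. Alternatives were DESeq2 1.42.0, other scalings and filters, robust dispersion, a replicate block, and fits without given libraries or groups. 2 more were added after the data were seen: the length trend removed, and the fit without the tumour group. Comparisons share groups: tumour trained, tumour and trained libraries are each set against the same controls.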

Additional observations from a re-analysis of the deposited data

Results flagged for a closer look

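Npr3 was the one value singled out, because the tumour effect ran in opposite directions without and with training. All 3 tumour trained libraries (18.4 to 22.2 CPM) were above the mean of the trained libraries (13.02 CPM), and all 3 tumour libraries (4.80 to 8.86 CPM) were below the mean of the control libraries (10.2 CPM). The interaction was 1.32 ± 0.45 on the log2 scale (adjusted p = 0.290 in edgeR), so the difference did not pass the threshold over all genes. Tumour 1 and tumour 2, the lower ones of the tumour group, held melanocyte transcripts, whose part in the difference was not tested. Scaled to the cardiomyocyte genes, Npr3 in tumour against control libraries had the opposite sign, at 0.62 ± 0.52 (adjusted p = 0.287 in edgeR), and without tumour 1 and tumour 2 it was at -0.19 ± 0.39 (adjusted p = 0.927 in edgeR). Groups of 3 libraries were not screened for single outlying samples.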

How the results depend on the processing

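Over the 7 genes and 6 contrasts, 963 of the recomputed log2 fold changes kept their sign and their side of the threshold, 17 passed it anew, 16 no longer passed it and 68 changed sign. The number of the 7 genes called in tumour against control libraries went from 0 to 3 when scaled to the cardiomyocyte list, and ranged from 0 to 3 over fits without 1 library, with 3 without tumour 3. In tumour trained against tumour libraries it was 1, became 3 under the cardiomyocyte scaling, and was 0 in a fit of only the groups compared, with the replicate block, without tumour 1 and tumour 2 under either scaling, and without control 2 and control 3. Without 1 library it ranged from 0 to 4, with 1 without trained 2, 4 without tumour 3 and 0 without any other. In tumour trained against control libraries it was 3 in a fit of only the groups compared. In the interaction it ranged from 0 to 3, with 3 without tumour 3. In the other contrasts and settings the count was as in the report. Over the fits without 1 library, the adjusted p of Npr3 in tumour trained against tumour libraries was between 7.04e-04 (edgeR, without tumour 3) and 0.13 (without tumour trained 3). With DESeq2 it was 6.13e-05, and the fit of only the 2 groups gave 0.235. Calls among all genes differed more: 3 in tumour against control and 2 in tumour trained against tumour libraries in fits of only the groups compared, against 868 and 1156, and 2490 and 2638 by DESeq2, which called 314 in the interaction against 3.

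Changes of sign under the cardiomyocyte scaling were as follows. In tumour against control, Nppb was at 0.54, Npr1 at 0.38, Npr3 at 0.62, Corin at 0.70 and Acta1 at 0.22. In tumour trained against tumour, Npr1 was at -0.39 and Corin at -0.39, and in the interaction Npr1 was at -0.38, Corin at -0.39 and Acta1 at -0.28. The scaling itself put the median of all genes at 1.463, -1.356 and -1.402 in these contrasts.

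Without tumour 1 and tumour 2, and with the cardiomyocyte scaling as well, tumour against control gave -0.70 and -0.72 for Nppa, 0.25 and 0.23 for Npr1, 0.32 and 0.30 for Corin, and -1.20 and -1.22 for Ankrd1. Tumour trained against tumour gave 0.46 and 0.52 for Nppa, -0.30 and -0.24 for Npr1, 0.077 and 0.14 for Acta1, 1.61 and 1.68 for Ankrd1, and -0.052 for Corin before that scaling. The interaction gave 0.27 and 0.32 for Nppa, 0.037 and 0.090 for Nppb, -0.30 and -0.24 for Npr1, 1.43 and 1.48 for Ankrd1, and -0.047 for Corin before that scaling. Without control 2 and control 3, Nppb was at 0.067 in tumour against control, and trained against control gave 0.58 for Nppb, 0.15 for Npr1 and -0.053 for Ankrd1, while Npr1 was at 0.11 in tumour trained against control.

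With library size alone, trained against control gave 0.013 for Npr1 and 0.015 for Corin. The titles' replicate numbers are not said to pair libraries, and same-numbered libraries had correlations of -0.268 to 0.241 in their deviations from the group means. With the replicate block, Corin in trained against control was at 0.008, and Npr3 in tumour trained against tumour at 1.73 (adjusted p = 0.0731 in edgeR). No other sign and no other call of the 7 genes changed with the block, which left 16 and 18 genes called in tumour against control and tumour trained against tumour.

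Over fits without 1 library, signs changed within these ranges. Tumour against control: Corin from -0.63 to 0.12 (without tumour 1) and Ankrd1 from -0.53 (without tumour 2) to 1.19. Tumour trained against trained: Npr1 from -0.11 to 0.049, Acta1 from -0.50 to 0.12 and Ankrd1 from -0.026 to 0.54. Trained against control: Nppb from -0.37 to 0.051, Npr1 from -0.090 to 0.050, Corin from -0.18 to 0.14 and Ankrd1 from -0.15 to 0.42. Tumour trained against tumour, all without tumour 2: Nppb from -0.58 to 0.16, Acta1 from -0.80 to 0.42 and Ankrd1 from -0.80 to 0.93. Tumour trained against control: Npr1 from -0.14 to 0.032. Interaction: Nppb from -0.46 to 0.27 and Ankrd1 from -0.97 to 0.76. Where no value shows it, the cause was not tested. A fit of only 2 groups gives no interaction.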
